A study of Mus musculus with 12 samples.

Results

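The 10 genes described here carry out or drive de novo lipogenesis, the building of fatty acids from acetyl units. They are the regulators Srebf1, Mlxipl and Thrsp and the enzymes Acly, Me1, Acaca, Acacb, Fasn, Elovl6 and Scd1. The genes were listed by name, and every probe whose RefSeq record belongs to one of them was taken, which gave 16 probes among the 39429 on the array. The array carries 20017 gene symbols in all. All 16 probes passed the filter of every comparison, which asks that Cy3 and Cy5 both stand above background on each array compared. The only exception among their spots was 1 spot on 1 array, that of Scd1 on the first 14-day array, which the scanner software marked as an outlier and which was left out.

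In the liver, de novo lipogenesis turns surplus sugar into fat. Citrate leaves the mitochondria and is split into acetyl-CoA, which is carboxylated to malonyl-CoA, joined into palmitate, and then lengthened and desaturated before it enters triglycerides. Insulin acts on the pathway through the transcription factor SREBP-1c, encoded by Srebf1, and sugar through ChREBP, encoded by Mlxipl. Its genes are known to be highly active in the obese, insulin-resistant liver and to be shut down by fasting.

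The samples were livers of male db/db mice of the BKS background, which lack a working leptin receptor, with an age of 8 weeks in the labels. Treated mice received MgH2, which releases H2 in the stomach, by gavage once a day for 1, 3 or 7 days at a labelled dose of 0.9 mg/kg, or drank H2-water with 0.8 mM H2 for 14 days. The methods name Mg(OH)2 as the control for MgH2 and degassed water as the control for H2-water. The 9 mice of a group gave 3 RNA pools, each of 3 mice, and each of the 12 two-color arrays set a treated pool in Cy5 against a control pool in Cy3, with 3 arrays per time point. Treated RNA was always in Cy5, and without a dye swap a probe's own dye bias remains part of its ratio. The 14-day arrays differ from the others in the agent, the route, the duration, the mice, the slide and the version of the scanner software together. These cannot be told apart. The 1-day arrays were all on slide 2 and the 7-day arrays on slides 3 and 4, so time and slide cannot be told apart between them. In whole liver, fewer cells of a type and less RNA per cell cannot be told apart either.

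Promoters are shown because the genes moved together. RefSeq's promoter table (GRCm38.p6) held 13 starts of 9 of the 10 genes, and Scd1 was not among them. The 250 bases before each start were searched on both strands for CACGTG (the E-box), CCAAT (the CCAAT box), GGGCGG (the GC box) and TCACNCCAC (a sterol regulatory element). Shown are Fasn and Elovl6, the genes with the lowest ratios, Thrsp, which did not pass the test, and both starts of Mlxipl. Capitals mark the matches, and no match overlapped one of another motif.
Fasn, chr11:120824548-120824797, minus strand: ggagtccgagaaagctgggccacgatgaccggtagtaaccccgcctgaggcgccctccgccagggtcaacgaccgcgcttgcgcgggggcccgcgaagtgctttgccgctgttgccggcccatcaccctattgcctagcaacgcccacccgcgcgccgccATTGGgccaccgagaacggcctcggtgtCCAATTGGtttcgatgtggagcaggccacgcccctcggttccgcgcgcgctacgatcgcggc
Elovl6, chr3:129532136-129532385, plus strand: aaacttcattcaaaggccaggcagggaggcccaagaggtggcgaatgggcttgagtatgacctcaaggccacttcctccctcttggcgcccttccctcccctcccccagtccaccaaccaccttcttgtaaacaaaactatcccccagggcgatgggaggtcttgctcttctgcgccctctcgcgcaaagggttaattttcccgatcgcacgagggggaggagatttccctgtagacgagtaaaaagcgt
Thrsp, chr7:97417551-97417800, minus strand: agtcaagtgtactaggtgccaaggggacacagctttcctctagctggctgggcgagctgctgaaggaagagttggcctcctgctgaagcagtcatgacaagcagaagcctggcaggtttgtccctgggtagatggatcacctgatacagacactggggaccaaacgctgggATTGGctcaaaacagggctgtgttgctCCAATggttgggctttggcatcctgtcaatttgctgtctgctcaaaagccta
Mlxipl, chr5:135089640-135089889, plus strand: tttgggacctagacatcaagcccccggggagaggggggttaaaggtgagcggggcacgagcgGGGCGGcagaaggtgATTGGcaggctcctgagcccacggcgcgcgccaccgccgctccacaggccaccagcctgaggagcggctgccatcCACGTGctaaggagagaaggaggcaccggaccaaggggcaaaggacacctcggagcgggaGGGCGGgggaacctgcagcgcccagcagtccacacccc
Mlxipl, second start, chr5:135106641-135106890, plus strand: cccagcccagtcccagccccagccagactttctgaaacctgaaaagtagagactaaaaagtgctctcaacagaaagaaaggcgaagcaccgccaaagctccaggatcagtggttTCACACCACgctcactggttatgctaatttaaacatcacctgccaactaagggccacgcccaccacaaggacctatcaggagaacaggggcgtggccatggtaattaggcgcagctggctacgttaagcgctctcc

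The CCAAT box was present before 7 of the 13 starts, in 6 genes (Acacb, Fasn, Me1, Mlxipl, Srebf1 and Thrsp), against 33.8% of the 32851 promoters in the table. Fasn held 3 copies, of which 2 lie on opposite strands and share bases, and Thrsp held 2. The GC box was found before 5 starts, in Acly, Me1, Mlxipl and Srebf1, against 32.7% of all promoters. The E-box and the sterol regulatory element were each found before 1 start, both of Mlxipl, against 6.02% and 1.05% of all promoters. Elovl6 and Acaca held none of the 4 motifs in these windows. A match is a run of letters and no evidence of binding, and a window without an exact match is no evidence that binding is absent.

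Between 51.8% and 56.5% of the 43020 spots were above background in both channels, 0 spots were saturated, and hepatocyte markers such as Alb and Ttr were bright, with 5 of 6 above background on all 12 arrays. The other, Cyp2e1, was above background on 11 arrays, and its spot on the remaining array was left out as an outlier. The control channel has to be described before the ratios. Over the 1-, 3- and 7-day arrays, the Cy3 levels of arrays with the same replicate number deviated together, with r from 0.321 to 0.670 over 9 pairs and 18397 probes, whereas the 18 pairs of unlike number gave -0.485 to 0.0922. The Cy5 levels of arrays with the same number gave -0.296 to 0.176. For Fasn, the Cy3 level was 0.66, 2.31 and 1.93 on the 1-day arrays 1, 2 and 3, 0.64, 2.22 and 1.89 on the 3-day arrays, and 0.63, 2.23 and 1.87 on the 7-day arrays, in log2 units above the array's median. Control number 1 was low in all 9 other genes as well, and each gene's Cy3 level varied over the days within a number by no more than 0.06 (Acacb) to 0.38 (Thrsp). The labels do not say whether the time points share control pools, so the 3 MgH2 comparisons may not be independent of each other.

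**Figure D1:**
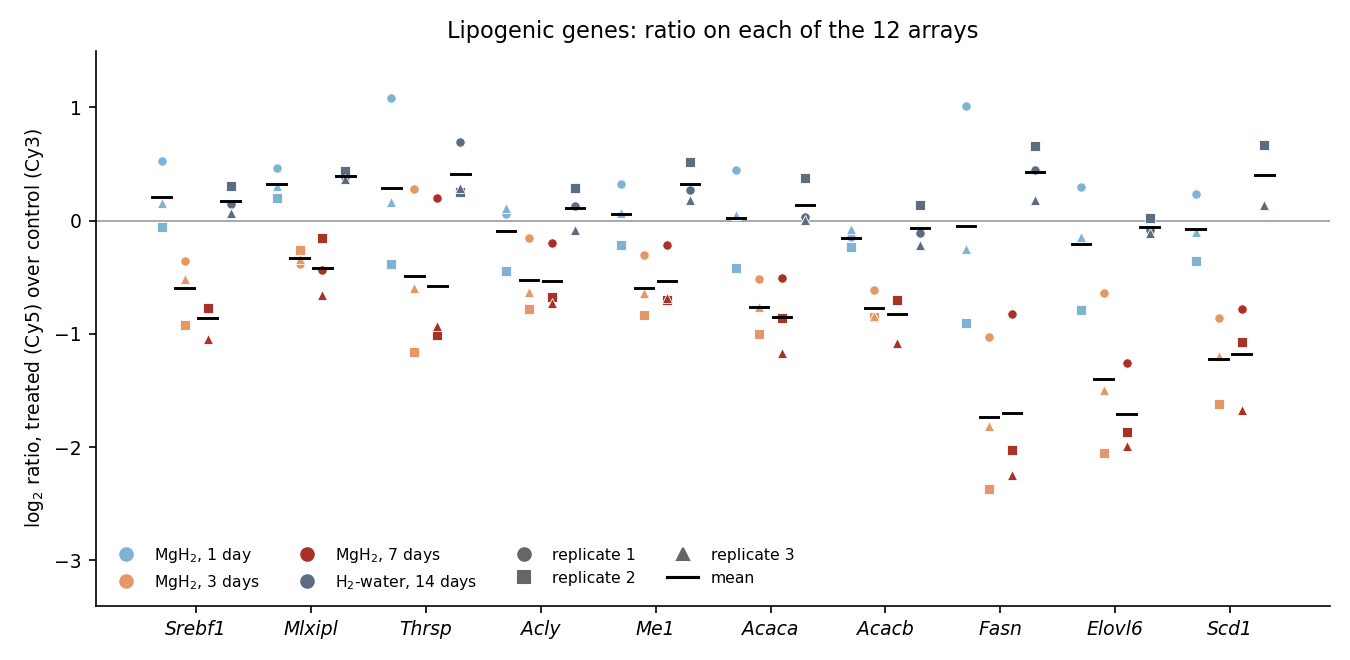
Log2 ratio of the treated over the control pool (vertical axis) for the 10 genes on each of the 12 arrays, by time point (colour) and replicate number (symbol), with the group mean as a bar. At 3 and 7 days the means of all 10 genes lie below 0, with Fasn at -1.73 and -1.70, while at 1 and 14 days they lie between -0.21 and 0.43.

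After 3 days of MgH2, 9 of the 10 genes were lower in the treated pools (limma, adjusted p under 0.05), and after 7 days the same 9 genes were lower, Thrsp being the exception both times. Of all probes tested, 11.1% were called lower at 3 days and 14.3% at 7 days. The median log2 ratio of the 10 genes was -0.68 at 3 days and -0.84 at 7 days, beside 0.00 and 0.01 over all probes. Fasn, Elovl6 and Scd1 were called and at least 2-fold lower at both times, which held for 0.0618% of the probes at 3 days (12 probes) and 0.144% at 7 days (28 probes). At 1 day 0 genes were called lower, beside 4.24% of probes, and 1 gene, Mlxipl, was called higher, beside 5.15%. After 14 days of H2-water 0 genes were called lower, beside 3.92% of probes, and Mlxipl alone was called higher, beside 4.95%. The median of the 10 genes was -0.01 at 1 day and 0.25 at 14 days.

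The count at 3 days depends on few arrays. It was 3 genes (Acacb, Elovl6 and Scd1) without the 3-day array 2, 6 without array 3, and 1 gene (Acacb) when only the 3-day arrays were fitted, although the ratios of all 10 genes stayed below 0 in each of these fits. At 7 days it was 6 without array 3, 7 without array 2, and 6 in a fit of the 7-day arrays alone.

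**Figure D2:**
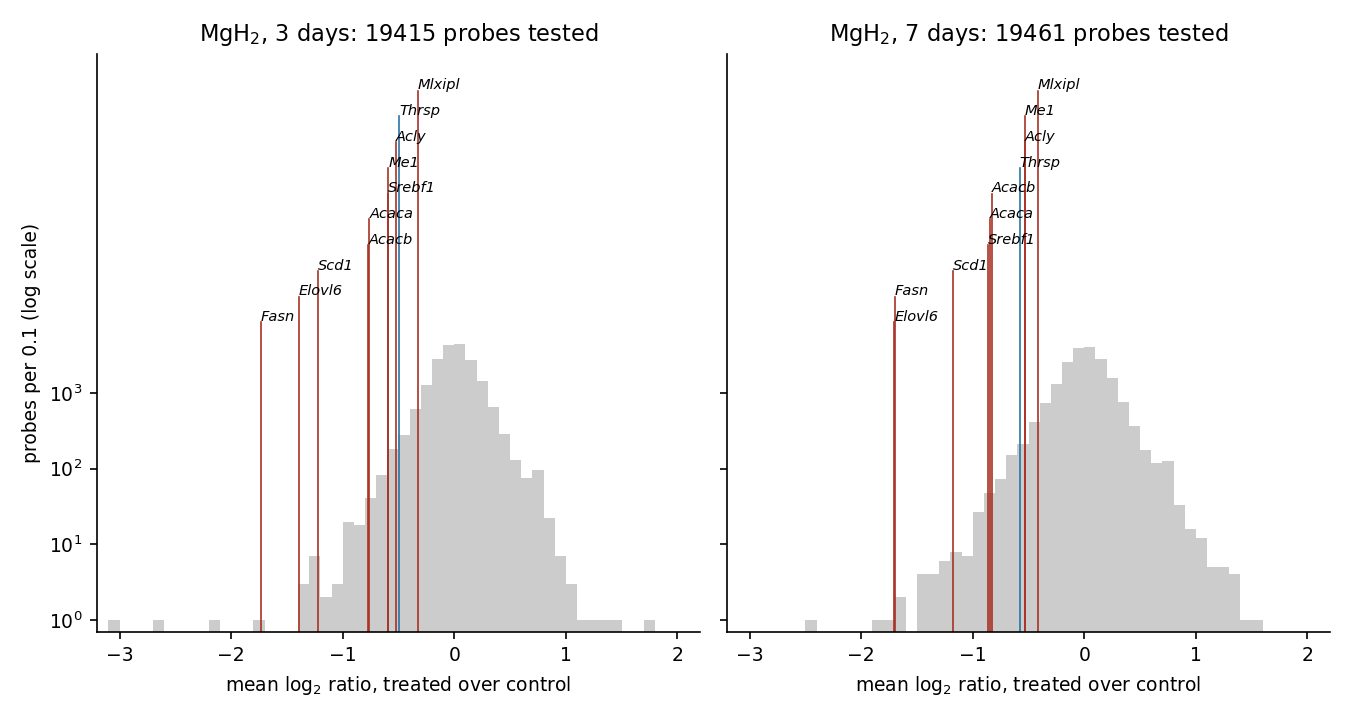
Distribution of the mean log2 ratio over all probes tested after 3 and 7 days of MgH2 (grey, number of probes on a log scale), with the 10 genes as lines, red where the adjusted p is under 0.05 and blue for Thrsp. Fasn, Elovl6 and Scd1 lie in the far lower tail, below -1, and Mlxipl at -0.33 and -0.42 lies within the bulk.

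Among the regulators, Srebf1 encodes SREBP-1, the factor that carries the insulin signal to the lipogenic genes. Its log2 ratio was 0.53, -0.05 and 0.15 on the 1-day arrays, -0.36, -0.92 and -0.51 on the 3-day arrays, -0.78, -0.77 and -1.04 on the 7-day arrays, and 0.14, 0.30 and 0.07 on the 14-day arrays. The arrays of 3 and 7 days all lay below those of 1 and 14 days. The mean was -0.60 ± 0.12 (SE, n = 3) at 3 days and -0.86 ± 0.12 at 7 days, with adjusted p = 0.00752 and 0.000889, so the transcript fell by 33.9% at the first and fell by 45.0% at the second.

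Mlxipl encodes ChREBP, which senses sugar metabolites. Its ratio was 0.47, 0.20 and 0.31 at 1 day, -0.38, -0.26 and -0.34 at 3 days, -0.44, -0.16 and -0.66 at 7 days, and 0.38, 0.44 and 0.37 at 14 days. It was thus above 0 on every array of 1 and 14 days and below 0 on every array of 3 and 7 days. The means were 0.33 ± 0.08 (SE, n = 3; adjusted p = 0.0325), -0.33 ± 0.08 (adjusted p = 0.0166), -0.42 ± 0.08 (adjusted p = 0.00393) and 0.40 ± 0.08 (adjusted p = 0.0162) in that order. The calls at 1, 3 and 14 days were each lost when any 1 of their 3 arrays was left out (adjusted p from 0.0805 to 0.167, 0.0545 to 0.0773 and 0.0871 to 0.0954), and only that at 7 days was kept (up to 0.0307). The call at 1 day was also lost with the replicate number as a block (adjusted p = 0.0549), and that at 3 days with no filter on dim probes (0.0541).

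Thrsp, also called Spot 14, is a small protein that promotes lipogenesis and is strongly induced by thyroid hormone and carbohydrate. Its ratio was 1.08, -0.38 and 0.17 at 1 day, 0.28, -1.16 and -0.60 at 3 days, 0.20, -1.01 and -0.93 at 7 days, and 0.70, 0.25 and 0.29 at 14 days. Array 1 was above 0 at every time point, and arrays 2 and 3 were far below 0 at 3 and 7 days, so the groups overlapped. The means of -0.49 ± 0.32 (SE, n = 3) at 3 days and -0.58 ± 0.32 at 7 days did not pass the test (adjusted p = 0.306 and 0.207).

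Acly, ATP citrate lyase, releases acetyl-CoA from citrate in the cytosol. Its ratio was 0.06, -0.44 and 0.11 at 1 day, -0.15, -0.78 and -0.63 at 3 days, -0.20, -0.67 and -0.73 at 7 days, and 0.13, 0.29 and -0.09 at 14 days. The 3- and 7-day arrays were all below 0 but overlapped the range at 1 day. Acly fell by 30.3% at 3 days (log2 ratio -0.52 ± 0.15, SE, n = 3; adjusted p = 0.03) and fell by 30.9% at 7 days (-0.53 ± 0.15; adjusted p = 0.0227). Both calls were lost without array 2 or array 3 of their time point (adjusted p up to 0.183 and 0.139). They were also lost with the authors' own log2 values and when only the arrays of that time point were fitted. The call at 3 days was lost with no filter on dim probes as well. A second probe was not called at 3 days (-0.41, adjusted p = 0.0841) and was called at 7 days (-0.65, adjusted p = 0.0117).

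Me1, malic enzyme, supplies NADPH for the synthesis. Its ratio was 0.32, -0.21 and 0.07 at 1 day, -0.30, -0.83 and -0.64 at 3 days, -0.21, -0.70 and -0.68 at 7 days, and 0.27, 0.52 and 0.18 at 14 days. The 14-day arrays were all above 0 and the 3- and 7-day arrays all below. The means of -0.59 ± 0.13 (SE, n = 3) at 3 days and -0.53 ± 0.13 at 7 days passed the test (adjusted p = 0.0112 and 0.0136). The 2 other probes of Me1 were called lower at both times, with means of -0.59 and -0.66 at 3 days and -0.63 and -0.64 at 7 days.

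Acaca and Acacb encode the acetyl-CoA carboxylases 1 and 2, which make malonyl-CoA, the first for the growing chain and the second at the mitochondrial surface, where malonyl-CoA holds back fatty acid oxidation. The ratio of Acaca was 0.44, -0.42 and 0.05 at 1 day, -0.52, -0.998 and -0.77 at 3 days, -0.51, -0.86 and -1.17 at 7 days, and 0.03, 0.38 and 0.01 at 14 days. All arrays of 3 and 7 days were below all arrays of 1 and 14 days. Acaca fell by 41.0% at 3 days (-0.76 ± 0.16, SE, n = 3; adjusted p = 0.0101) and fell by 44.4% at 7 days (-0.85 ± 0.16; adjusted p = 0.00436). Its 2 other probes were called lower at both times, at -0.65 and -0.94 after 3 days and -0.75 and -0.95 after 7 days.

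The ratio of Acacb was -0.14, -0.23 and -0.08 at 1 day, -0.61, -0.85 and -0.84 at 3 days, -0.70, -0.70 and -1.08 at 7 days, and -0.11, 0.13 and -0.21 at 14 days. Its 3 arrays of a time point lay close together, and those of 3 and 7 days lay apart from the rest. Acacb fell by 41.3% at 3 days (-0.77 ± 0.09, SE, n = 3; adjusted p = 0.000456) and fell by 43.6% at 7 days (-0.83 ± 0.09; adjusted p = 0.000201), the lowest adjusted p of the 10 genes at both times. Its second probe read -0.95 and -0.98 at these times, and was the only one of the 16 probes called lower at 1 day (-0.36, -0.55 and -0.07, mean -0.33, adjusted p = 0.0379). At 14 days this probe read -0.30, -0.16 and -0.42 (mean -0.29, adjusted p = 0.0583, not called), so it was below 0 on every array. Since no dyes were swapped, a dye bias of this probe and a response cannot be told apart.

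Fasn, fatty acid synthase, joins malonyl units into palmitate. Its log2 ratio was 1.01, -0.91 and -0.25 at 1 day, -1.03, -2.37 and -1.81 at 3 days, -0.82, -2.03 and -2.24 at 7 days, and 0.45, 0.66 and 0.18 at 14 days. Array 1 was the least negative at 3 and 7 days and well above 0 at 1 day, and the lowest 1-day array overlapped the highest 7-day array. Fasn fell by 70.0% at 3 days (-1.73 ± 0.37, SE, n = 3; adjusted p = 0.00924) and fell by 69.2% at 7 days (-1.70 ± 0.37; adjusted p = 0.00754).

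Elovl6 lengthens palmitate to stearate. Its ratio was 0.30, -0.79 and -0.15 at 1 day, -0.64, -2.05 and -1.49 at 3 days, -1.26, -1.86 and -1.99 at 7 days, and -0.09, 0.03 and -0.11 at 14 days. The 7-day arrays were all below those of 1 and 14 days, while the 3-day arrays overlapped the lowest 1-day array. Elovl6 fell by 62.0% at 3 days (-1.39 ± 0.25, SE, n = 3; adjusted p = 0.00476) and fell by 69.3% at 7 days (-1.70 ± 0.25; adjusted p = 0.00117).

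Scd1, stearoyl-CoA desaturase 1, places the double bond that turns stearate into oleate. Its ratio was 0.24, -0.36 and -0.10 at 1 day, -0.86, -1.61 and -1.20 at 3 days, -0.78, -1.07 and -1.67 at 7 days, and 0.66 and 0.14 on the 14-day arrays 2 and 3, the only 2 used there. The 3- and 7-day arrays lay below all others. Scd1 fell by 57.2% at 3 days (-1.22 ± 0.20, SE, n = 3; adjusted p = 0.00331) and fell by 55.8% at 7 days (-1.18 ± 0.20; adjusted p = 0.00256), and its 14-day mean of 0.40 (n = 2) was not called (adjusted p = 0.358, or 0.197 with the marked spot kept).

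**Figure D3:**
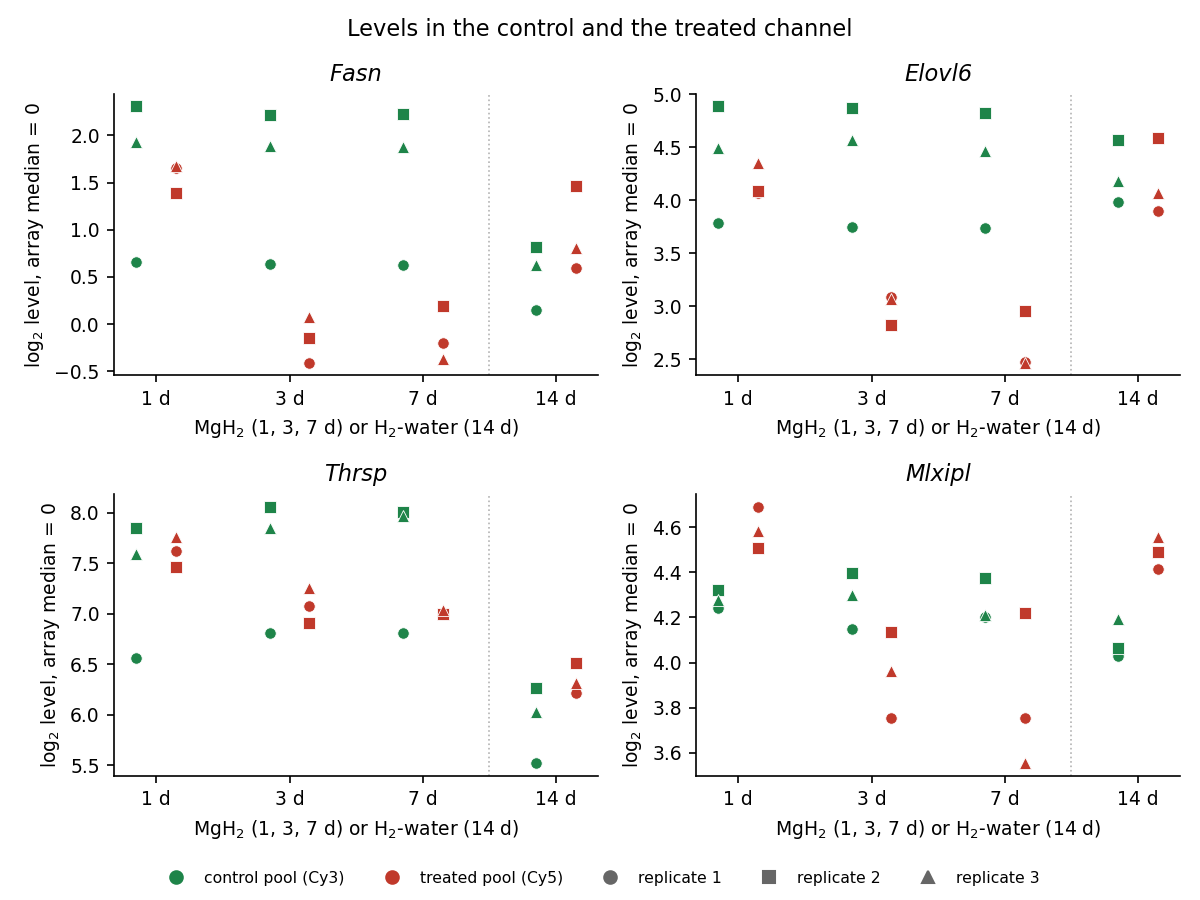
Log2 level in the control (Cy3, green) and the treated channel (Cy5, red) for Fasn, Elovl6, Thrsp and Mlxipl on each array, with 0 the median of the array's probes above background and the replicate number as the symbol. The 3 control levels return at each MgH2 time point, with number 1 low, while the treated levels step down between 1 and 3 days; the 14-day levels come from other mice and another slide.

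The spread of the ratios within a time point sat mostly in the control channel. Averaged over the 3 MgH2 time points, the SD between replicate numbers was 0.85 in Cy3 and 0.23 in Cy5 for Fasn, and 0.68 and 0.12 for Thrsp. For Mlxipl the order was turned, with 0.09 in Cy3 and 0.21 in Cy5. The treated pools on their own gave the same picture for all 10 genes, Thrsp included: the lowest 1-day pool lay above the highest of the 6 pools of 3 and 7 days, by 0.18 (Acly) to 1.19 (Fasn) in log2 level. Treated levels that were lower without overlap were seen for 12.6% of probes between 1 and 3 days and for 18.1% between 1 and 7 days. The mean treated level of Fasn was 1.57, -0.16 and -0.12 at 1, 3 and 7 days, while its control mean was 1.63, 1.58 and 1.58. For Thrsp, the treated mean was 7.61, 7.08 and 7.01 and the control mean 7.34, 7.57 and 7.60. These levels compare arrays without a common reference, and so also hold differences between arrays.

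The next question is whether the ratios themselves differed between time points. From 1 to 3 days all 10 genes had a lower mean ratio at 3 days, with differences from -0.43 (Acly) to -1.69 (Fasn). Without regard to the replicate number 0 of them passed (8 at an unadjusted p under 0.05), beside 0.0052% of all probes called lower. With the replicate number as a block, 4 genes passed, namely Thrsp (-0.78 ± 0.10, SE, adjusted p = 0.0444), Me1 (-0.65 ± 0.06, adjusted p = 0.0323), Fasn (-1.69 ± 0.19, adjusted p = 0.0433) and Elovl6 (-1.18 ± 0.17, adjusted p = 0.0491), beside 0.619% of all probes. The labels do not give this pairing, which was read from correlations in these same data. A comparison of the treated levels alone, added after the control levels had been seen, called 8 genes lower, all but Acly and Acaca, beside 2.22% of probes.

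From 1 to 7 days, 5 genes were called lower without the block, beside 3.7% of probes: Srebf1 (-1.07 ± 0.17, SE, adjusted p = 0.0133), Mlxipl (-0.74 ± 0.11, adjusted p = 0.0122), Acacb (-0.68 ± 0.12, adjusted p = 0.0165), Elovl6 (-1.49 ± 0.36, adjusted p = 0.0362) and Scd1 (-1.10 ± 0.28, adjusted p = 0.0459). With the block, 9 were called, all but Acly (-0.44 ± 0.13, adjusted p = 0.07), beside 7.61% of probes, and the treated levels alone gave all 10, beside 9.78%. Those gained with the block were Thrsp (-0.87 ± 0.10, adjusted p = 0.0116), Me1 (-0.59 ± 0.06, adjusted p = 0.0108), Acaca (-0.87 ± 0.15, adjusted p = 0.0223) and Fasn (-1.65 ± 0.19, adjusted p = 0.0116). Without the block, the count fell to 1 gene, Mlxipl, when the 7-day array 3 was left out, to 3 when the 1-day array 1 or 3 or the 7-day array 1 or 2 was, and to 0 when only these 6 arrays were fitted. The 1-day and 7-day arrays shared no slide, so time and slide cannot be told apart here.

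Between 3 and 7 days 0 genes were called in either fit, 0 at an unadjusted p under 0.05, and 0.0% of probes were called lower (904 at an unadjusted p under 0.05 in either direction). The differences ran from -0.31 ± 0.36 (SE) for Elovl6 to 0.06 ± 0.19 for Me1. Slide 2 held all 1-day arrays and the 3-day array 1, and within it 3 days minus 1 day ran from -0.01 (Thrsp) to -0.98 (Fasn), below 0 in all 10 genes. That value sets number 1 at 3 days against numbers 1, 2 and 3 at 1 day, and number 1 against number 1, a comparison added after the data had been seen, gave -0.21 (Acly) to -2.04 (Fasn), with Thrsp at -0.80. Slide 3 held 2 arrays each of 3 and 7 days, and within it 7 days minus 3 days ran from -0.06 (Srebf1) to 0.66 (Fasn). There the numbers were 1 and 2 at 7 days but 2 and 3 at 3 days, and number 2 against number 2 gave 0.11 (Mlxipl and Acly) to 0.54 (Scd1), with Fasn at 0.34.

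**Figure D4:**
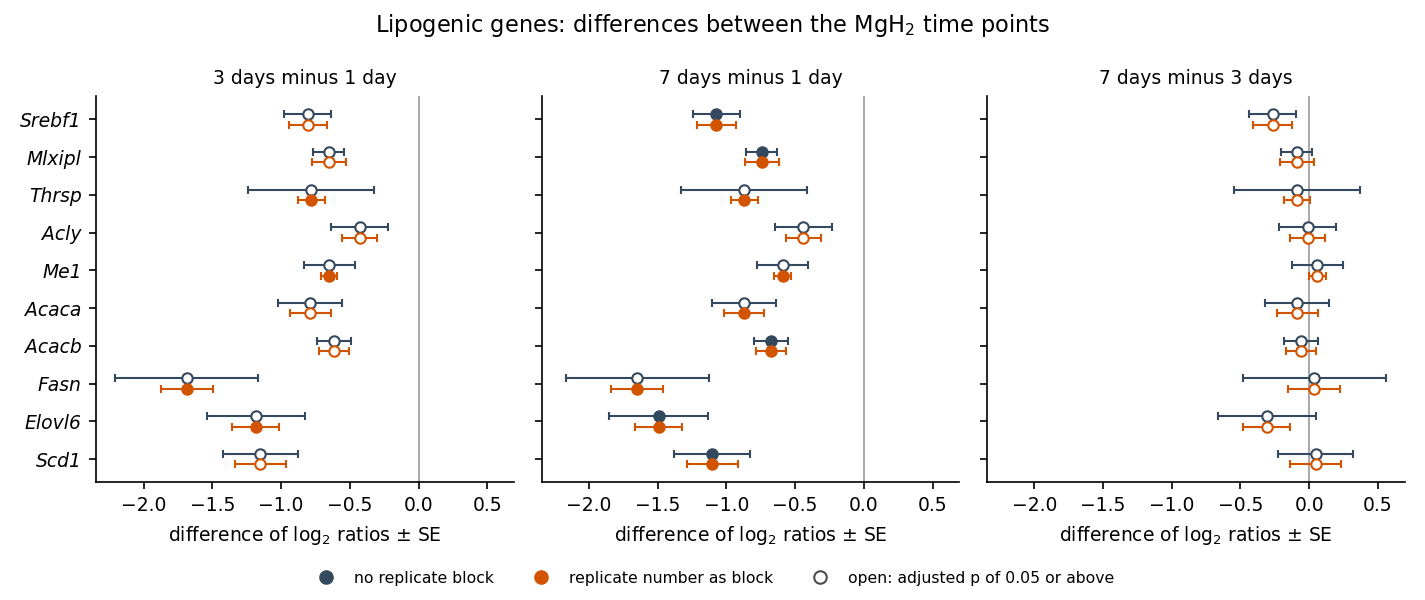
Difference of the mean log2 ratio between MgH2 time points for the 10 genes, with the SE as bar, without (dark) and with (orange) the replicate number as a block. Filled points passed at an adjusted p under 0.05: 0 and 4 genes from 1 to 3 days, 5 and 9 from 1 to 7 days, and none from 3 to 7 days.

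After 14 days of H2-water the means lay between -0.06 (Acacb and Elovl6) and 0.43 (Fasn), and all arrays used were above 0 for Srebf1, Mlxipl, Thrsp, Me1, Acaca, Fasn and Scd1, as they were on all 3 arrays for 26.2% of the probes tested. Of these 7 genes only Mlxipl was called. Set against 7 days of MgH2, the ratio was higher at 14 days in all 10 genes, and in 8 of them by the test (all but Thrsp and Acly), beside 3.44% of probes, with differences from 0.76 ± 0.12 (SE) for Acacb to 2.13 ± 0.52 for Fasn among the 8. That count was 1 gene, Mlxipl, without the 14-day array 2, 2 without the 7-day array 3, 3 without the 14-day array 3 and 4 without the 14-day array 1 or the 7-day array 2. Agent, route, duration, mice, slide and software version all differ between these groups and cannot be told apart.

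The 10 genes followed each other closely from array to array. The correlation of each gene with the mean of the other 9 (each standardized) was 0.862 for Thrsp, 0.874 for Mlxipl and 0.931 to 0.989 for the rest, over 12 arrays (11 for Scd1). The arrays fall into time points and their controls may be shared, so this is a description of one pattern and not of independent changes. Outside the list and the lists named below, the probes most like the mean of the 10, out of 18397, were those of Nrp2 (r = 0.990), Paqr7 (0.973), Acot11 (0.968), Csad (0.966), Homer1 (0.965) and Samd9l (0.964). Csad, the decarboxylase of taurine synthesis, was called lower at 3 and 7 days (-0.49 and -0.48), as were Nrp2 (-0.52 and -0.56), a coreceptor for semaphorins and VEGF, Paqr7 (-0.55 and -0.70), a membrane progestin receptor, Acot11 (-0.84 and -0.87), an acyl-CoA thioesterase, and Samd9l (-0.48 and -0.55). Homer1, a scaffold protein, was called at 7 days only (-0.22, against -0.14 at 3 days). These genes were picked by their likeness over the same arrays, so lower ratios at 3 and 7 days follow from the choice. Of all probes 11.1% and 14.3% were called lower at these times.

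**Figure D5:**
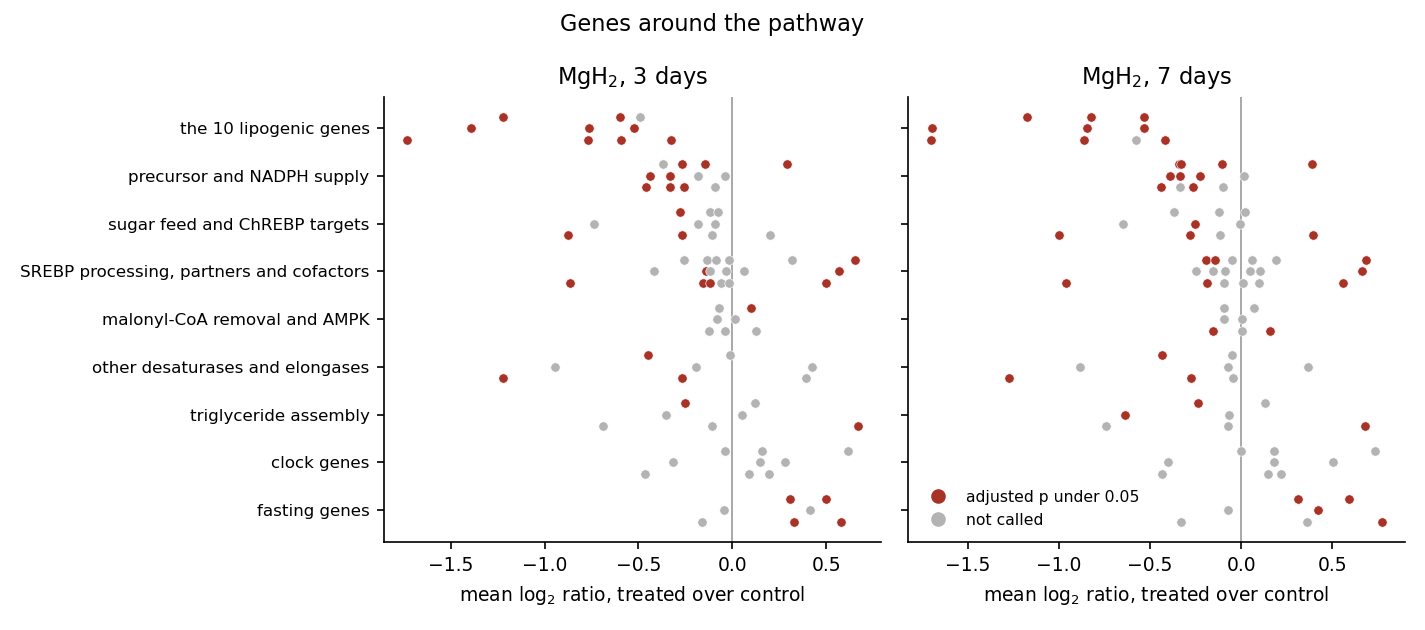
Mean log2 ratio of each gene tested, by list, after 3 and 7 days of MgH2; red points have an adjusted p under 0.05. The 10 lipogenic genes all lie below 0, while the neighbouring lists are mixed: of 62 genes tested in the 6 lists around the pathway, 18 were lower and 6 higher at 3 days, and 21 lower and 7 higher at 7 days.

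The genes around the pathway were taken in 6 lists with 65 genes, of which 62 were tested at 3 and 7 days. At 3 days 18 were called lower and 6 higher (29.0% and 9.68%), with a median log2 ratio of -0.12, and at 7 days 21 were lower and 7 higher (33.9% and 11.3%), with a median of -0.10. Over all probes 11.1% were lower and 12.3% higher at 3 days, and 14.3% and 15.3% at 7 days, so the share of these genes called higher was below that of all probes. At 1 day 4 of 63 were lower (Idh1, Taldo1, Fads1 and Fads2) and 1 higher (Usf2), and at 14 days 0 of 61 were lower and 3 higher (Mpc1, Usf2 and Elovl5). These are 6.35% lower at 1 day and 4.92% higher at 14 days, near the 4.24% and 4.95% of all probes.

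The supply of precursors and NADPH had the highest share of calls among these 6 lists at 3 and 7 days. Of 12 genes, 7 were lower and 1 higher at 3 days, beside 11.1% and 12.3% of all probes. At 7 days 8 were lower and 1 higher, beside 14.3% and 15.3%. The difference from 1 day, without the block, was called in 0 of the 12 genes at 3 and at 7 days. Idh1 had means of -0.24, -0.27 and -0.26 at 1, 3 and 7 days, and -0.18 at 14 days (not called). Since no dyes were swapped, a dye bias of its probe and a response cannot be told apart. Tkt, transketolase of the pentose phosphate pathway, read -0.29, -0.52 and -0.57 at 3 days and -0.26, -0.46 and -0.60 at 7 days. Its means of -0.46 and -0.44 had adjusted p = 0.00257 and 0.0021. Taldo1, transaldolase of the same pathway, fell at 1, 3 and 7 days, to -0.16, -0.26 and -0.34. Pcx, pyruvate carboxylase, fell to -0.33 and -0.39 at 3 and 7 days. Mpc1, part of the mitochondrial pyruvate carrier, was higher at 3, 7 and 14 days, at 0.29, 0.39 and 0.40.

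Of 10 genes of sugar use and known ChREBP targets, 3 were lower at both times, beside the same 11.1% and 14.3%. Pklr, liver pyruvate kinase and a classic ChREBP target, read -0.60, -1.22 and -0.80 at 3 days and -0.83, -0.89 and -1.27 at 7 days. It fell by the most in this list, to -0.88 and -0.998, and its difference from 1 day was called at 7 days. Gpd1, which makes glycerol 3-phosphate, was at -0.28 at both times, and Tkfc, a triokinase of fructose use, at -0.27 and -0.25. Txnip was higher at 7 days (0.39).

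Of 18 genes of SREBP processing, partners and cofactors, 4 were lower and 3 higher at both times, beside 11.1% and 14.3% of all probes lower and 12.3% and 15.3% higher. Mid1ip1, a relative of Thrsp that activates acetyl-CoA carboxylase, read -0.16, -1.33 and -1.11 at 3 days and -0.85, -1.18 and -0.85 at 7 days, with means of -0.86 (adjusted p = 0.0208) and -0.96 (adjusted p = 0.0102). Insig2, which retains SREBP in the endoplasmic reticulum, was higher, at 0.08, 0.86 and 1.02 at 3 days and 0.48, 0.69 and 0.81 at 7 days. Mbtps2, a protease that releases SREBP, was higher at 0.57 and 0.68. Usf2 was higher at every time point, with 0.43 to 0.59 on each of the 12 arrays whatever the agent, and since no dyes were swapped, a dye bias of its probe and a response cannot be told apart. Mbtps1 and Nr1h2 fell by small amounts at both times (means from -0.12 to -0.19), Nfyb at 3 days (-0.14) and Mlx, the partner of ChREBP, at 7 days (-0.19).

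Of 8 other desaturases and elongases tested, Scd3, Elovl5 and Fads2 were lower at both times, beside 11.1% and 14.3% of all probes. Scd3 read -0.85, -1.56 and -1.25 at 3 days and -0.87, -1.19 and -1.76 at 7 days, close to Scd1 array by array, and whether the paralog's probe also binds Scd1 was not tested. Elovl5, which lengthens polyunsaturated chains, fell to -0.45 and -0.44 and was higher at 14 days (0.36). Fads2, a desaturase of the same pathway, was already lower at 1 day (-0.34), as was Fads1 (-0.40). Of 7 genes of triglyceride assembly tested, Agpat2 was lower at both times (-0.25 and -0.24), Lpin1 was higher (0.67 and 0.68), and Mogat1 was lower at 7 days (-0.64). Of 7 genes of malonyl-CoA removal and AMPK, Prkag1 was higher by 0.10 and 0.16, and Mlycd, which degrades malonyl-CoA, was lower at 7 days (-0.16). Of all probes 11.1% and 14.3% were lower at 3 and 7 days, and 12.3% and 15.3% higher. A count of 1 of 7 genes is near these shares.

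Genes that move with feeding or with the time of day were read as well. Of 7 fasting genes tested, 4 were higher at 3 and at 7 days, against 12.3% and 15.3% of all probes. Ppargc1a, a coactivator of fasting metabolism, read 0.42, 0.89 and 0.43 at 3 days and 0.98, 0.60 and 0.74 at 7 days. Angptl4 was at 0.50 and 0.59, Cpt1a, the entry step of mitochondrial fatty acid oxidation, at 0.33 and 0.42, and Pck1, of gluconeogenesis, at 0.31 and 0.31. At 14 days Cpt1a was higher (0.27) and Pck1 lower (-0.39). Of 9 clock genes tested, 0 were called at any time point, but single arrays differed widely: Arntl, chosen after its values were seen, read -1.69, 0.65 and 0.78 at 1 day. Food intake and the hour of sampling are not in the labels, and their part in the lipogenic ratios was not tested.

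Markers of other cells were read for the same reason. Of 5 adipocyte markers, Adipoq, Lep and Plin1 were above background in both channels on 0 of 12 arrays, Retn on 11 and Cfd on 12. Cfd read 2.61, -0.96 and -0.72 at 1 day, -0.91, -3.57 and -2.09 at 3 days, -0.90, -3.44 and -2.92 at 7 days, and 2.57, 0.38 and 1.03 at 14 days. It was called lower at 7 days (adjusted p = 0.0379) and its array 1 stood highest at each MgH2 time point, as it did for Fasn, Elovl6 and Thrsp. The median of the adipocyte markers tested was -1.72 at 3 days, -1.82 at 7 days and 1.33 at 14 days, over 2, 2 and 1 genes. Of 5 immune markers, Clec4f of Kupffer cells was lower at 3 and 7 days (-0.36 and -0.45) and Ptprc at 1 and 7 days (-0.59 and -0.70). Cd3e of T cells was higher at 3 days (0.11) and lower at 14 days (-0.16), while Adgre1 and Lyz2 were called at no time point. Of all probes 4.24%, 11.1%, 14.3% and 3.92% were called lower at 1, 3, 7 and 14 days, and 12.3% and 15.3% higher at 3 and 7 days. Of 3 blood markers, Alas2 of red blood cell precursors was lower at 3, 7 and 14 days (-0.56, -0.70 and -0.41). Hba-a1 and Hbb-bt were called at no time point, and the median of the blood markers was -0.02, -0.29 and -0.08 at these times. Of the 6 hepatocyte markers, Alb (0.25 and 0.41) and Cyp2e1 (0.22 and 0.28) were higher at 3 and 7 days, Ttr was higher (0.22) and Apob lower (-0.34) at 7 days, and Hnf4a was lower at 14 days (-0.21). Of 9 pancreas acinar markers 4 were above background on all arrays and 2 on none, and only Ctrb1 was called, lower at 3 days (1 of 4 tested). Of 3 stromal and endothelial markers Lyve1 was higher and Col1a1 lower at 3 and 7 days, while Pecam1 was called at no time point. The part of these shifts in the lipogenic ratios was not tested.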

How the data were processed

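Liver RNA pools of db/db mice were measured on 12 two-color arrays. The authors scanned them with Agilent Feature Extraction, and the deposited intensity values are background-corrected and dye-normalized within each array. The labels name version 10.10.1, whereas the file headers of the 14-day arrays give 10.7.3. The deposited log10 ratios, Cy5 over Cy3, were computed by Feature Extraction from these intensities. The log2 values of the authors' table equal these ratios, put on the log2 scale, within 1.39e-06.

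Left out here were control spots and 160 to 244 spots per array that carried an outlier mark. The log2 ratio of processed intensities was averaged over the spots of a probe. Probes were named through their RefSeq record, and a gene with several probes was represented by the one with the highest mean signal. A single limma fit (version 3.58.1, R 4.3.3) took in the 12 arrays and estimated each group's mean. Tests were two-sided, and p-values were adjusted by Benjamini-Hochberg over every probe whose Cy3 and Cy5 signals stood above background on each array compared. Genes were called at an adjusted p under 0.05. Levels are log2 intensities minus the array's median over probes above background on all arrays, with the 75th percentile over all probes tried as well. The replicate numbers were taken to pair the 1-, 3- and 7-day arrays, since ratios of like number correlated (r from 0.368 to 0.655 over 9 pairs), so the blocked value is given where it changes a call. Numbers were not taken to pair the 14-day arrays with those of 7 days (0.0352 to 0.288 over 3 pairs). The SE of a group mean rests on the spread pooled over all groups, and the number of arrays limits the precision. The fit was also run on simulated ratios with independent noise on each array, which cannot test the effect of the correlation between arrays of like number.

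Beside the 10 genes, the text names at most 3 called genes per list and time point with the lowest adjusted p, all genes of a count of 5 or fewer, and the 6 genes most like the mean of the 10. The genes and lists were chosen with earlier results of these data known. Alternatives were other scalings, normexp (offset 50) with loess, no filter, marked spots kept, the authors' table, all probes averaged, single groups fitted, slide or replicate blocks, each array left out, and the methods' t-test. The treated channel alone was added after the data had been seen. Labels do not say more of how the pools were made, so p-values measure the spread between these pools.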

Additional observations from a re-analysis of the deposited data

Results flagged for a closer look

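The ratio under MgH2 differed between 1 and 7 days, by a test of the difference itself, in 5 of the 10 genes. Of all probes 3.7% were called lower. The count fell to 1 gene without the 7-day array 3 and to 0 when only these groups were fitted. The 1-day and 7-day arrays shared no slide, so time and slide cannot be told apart. The difference of log2 ratios, 7 days minus 1 day, was -1.07 for Srebf1, -0.742 for Mlxipl, -0.677 for Acacb, -1.49 for Elovl6 and -1.1 for Scd1. The ratio after 14 days of H2-water differed from that after 7 days of MgH2 in 8 genes, by 1.03 for Srebf1, 0.813 for Mlxipl, 0.856 for Me1, 0.987 for Acaca, 0.763 for Acacb, 2.13 for Fasn, 1.65 for Elovl6 and 1.58 for Scd1, and here agent, route, mice, slide and software version changed with the time. Of all probes 3.44% were called higher, and the count fell to 1 gene without the 14-day array 2.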

How the results depend on the processing

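Of the values of the 10 genes under all alternatives, 1020 kept direction and side of the threshold, 104 lost and 28 gained a call, and 34 changed sign, 0 of them with a call before or after. Of these, 29 came with 1 array left out and 21 in the difference of 7 and 3 days. With 1 array left out, the ratio at 1 day ran from -0.11 to 0.62 for Thrsp, -0.072 to 0.20 for Me1, -0.18 to 0.25 for Acaca, -0.19 to 0.082 for Acly, -0.58 to 0.38 for Fasn, -0.47 to 0.077 for Elovl6 and -0.23 to 0.069 for Scd1, and that of Acacb at 14 days from -0.16 to 0.010. The difference of 7 and 3 days then ran from -0.48 to 0.30 for Thrsp, -0.18 to 0.17 for Acly, -0.26 to 0.077 for Acaca, -0.12 to 0.067 for Acacb, -0.64 to 0.067 for Elovl6, -0.099 to 0.21 for Me1, -0.40 to 0.39 for Fasn, -0.15 to 0.29 for Scd1 and -0.22 to 0.030 for Mlxipl. The other sign changes were Acaca at 1 day with channels scaled by totals (-0.0094), Scd1 at 1 day and Fasn between 3 and 7 days with normexp and loess (0.053 and -0.016), Fasn at 1 day with the slide block (0.0063) and Acly at 14 days with all probes averaged (-0.038). At 1 day the 1 call among the 10 genes became 0 with no filter, in the single-group fit, with the authors' table, with the replicate block and with the methods' t-test after adjustment. At 3 days the 9 calls became 7 with no filter, 8 with the authors' table and 1 in the single-group fit, and 5 before and 0 after adjustment of the methods' t-test. At 7 and 14 days that adjusted test left 0 (before adjustment 8 and 1). The 9 calls at 7 days became 8 with the authors' table and 6 in the single-group fit. The pathway lists had 5 calls at 1 day, but 9 with channels scaled by totals, 8 with normexp and loess, 1 with no filter, 0 in the single-group fit and 10 with slide as a random block. Their 24 calls at 3 days became 14 with no filter and 3 in the single-group fit, their 28 at 7 days 12 in that fit, and their 3 at 14 days 7 with normexp and loess and 6 with the slide block. From 1 to 3 days the calls among the 10 genes went from 0 to 1 with normexp and loess, 4 with the replicate block and 8 in the treated channel alone. From 1 to 7 days the 5 calls became 1 with no filter, 0 with only those groups, 3 with the authors' table, 9 with the replicate block, 8 with the slide block and 10 in the treated channel. Between 7 and 14 days the 8 became 4 with only those groups, 4 with the authors' table and 0 with the replicate block, whose numbers were not taken to pair these arrays. The block changed no other count of calls among the 10 genes. Over all probes, the calls ranged from 292 to 5131 at 3 days and 2177 to 8560 at 7 days across the other alternatives, and the methods' t-test left 1 and 0 after adjustment (2450 and 3662 before). Leaving out 1 array gave 0 calls among the 10 genes at 1 and 14 days and from 1 to 3 and 3 to 7 days, 3 to 8 at 3 days, 6 to 9 at 7 days, 1 to 5 from 1 to 7 days and 1 to 8 between 7 and 14 days, and for the lists 1 to 3 at 1 day, 13 to 17 at 3 days, 15 to 20 at 7 days and 2 at 14 days. The cause of these shifts was not tested. The number of arrays and the lack of a dye swap limit what can be read.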
